A study of Homo sapiens with 6 samples.

Results

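The 50 genes described here encode the proteins that license replication origins, unwind and copy DNA at the fork, and restore chromatin behind it. They are a list of symbols, grouped here by the role of the protein, and all 50 were found among the 26286 genes listed in the deposited tables. RNA was sequenced from HT-1080 cells, an established human fibrosarcoma line, after 48 h of treatment. One group received the vehicle DMSO, another 2 µM palbociclib, which blocks the cyclin-dependent kinases CDK4 and CDK6, and the last 500 nM pimasertib, which blocks the MEK kinases that activate ERK. Each group had 2 libraries, and all rest on this 1 cell line. Separate cultures are not named in the labels, so a p-value here measures the spread between these libraries alone, which may be technical.

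Replication starts when the origin recognition complex, with CDC6 and CDT1, loads rings of MCM2 to MCM7 on DNA in G1 phase, a step that geminin (GMNN) blocks once S phase begins. The kinase CDC7 with its partner DBF4 then allows CDC45 and the GINS complex to join each ring, and the assembled helicase opens the fork. Polymerases with the sliding clamp PCNA copy the DNA. Many genes of this machinery are transcribed in late G1 and S phase under E2F factors, which the retinoblastoma protein RB holds back until cyclin-dependent kinases phosphorylate it.

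The libraries held 13607490 to 17500655 counts, and all 50 genes passed the filter on low counts, which left 14839 genes to test. The lowest count of any of the 50 in a library was 27. Mesenchymal markers summed to 3742 and 5666 CPM (counts scaled to the library total) in the DMSO libraries. The sums were 5420 and 7666 with palbociclib, and 10102 and 13936 with pimasertib, higher in both pimasertib libraries than in any other. Most of the pimasertib sum was SPARC, at 684% of its mean DMSO level, while VIM was at 59.6% and CD44 at 27.6%. Of the 7 mesenchymal markers tested, 3 rose and 1 fell with pimasertib and none passed with palbociclib, and THY1 was at 0 in 2 libraries. Leukocyte markers summed to between 0.388 and 1.09 CPM. Epithelial markers summed to 1.9 to 3.45 CPM in 5 libraries and to 14.1 CPM in palbociclib replicate 2, where KRT19 was at 9.19 CPM. KRT5 and ESRP1 were at 0 in all libraries. Endothelial markers, nearly all TIE1, summed to 132 and 221 CPM with DMSO, 263 and 343 with palbociclib, and 135 and 189 with pimasertib, while PECAM1 was at 0. The part of these markers in the results below was not tested. Mitochondrially encoded genes took 3.21% to 8.76% of counts, with the higher share in replicate 2 of every group. Replicate 2 was also lower than replicate 1 in 48 of the 50 replication genes in DMSO (median log2 difference -0.31), in 36 in palbociclib (-0.21) and in 47 in pimasertib (-0.29). Over all tested genes these medians were -0.03, 0.02 and -0.01.

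Palbociclib lowered most of the 50 genes, which were chosen with earlier results of these data known. Of 33 other replication factors, given further on, 8 passed as lower with palbociclib. Measured as CPM, the 50 genes had a median of 38.1% of their DMSO level, from 18.6% for CLSPN to 92.8% for ORC2. By the edgeR quasi-likelihood test, 37 of the 50 fell at an adjusted p under 0.05, compared with 2.44% of all tested genes called lower and 3.54% called in either direction. Of these 37, 35 fell by at least 2-fold. No gene of the 50 had a log2 fold change above 0, and none was called higher by edgeR, DESeq2 or limma-voom. The median log2 fold change was -1.39, against 0.00 over all tested genes. In 49 of the 50 both palbociclib libraries lay below both DMSO libraries, as in 23.3% of tested genes, and the exception was ORC2. In bulk RNA, fewer cells in S phase and less of these transcripts per cell cannot be told apart.

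The 13 genes that did not pass with palbociclib were ORC2, MCM8, DBF4, GINS3, TIPIN, DSCC1, POLA1, POLA2, PRIM2, POLD1, POLE2, RPA1 and RPA2, of which all but ORC2 and PRIM2 had an unadjusted p under 0.05 (48 of the 50 in all, compared with 18% of tested genes). The authors' deposited table called 40 of the 50 lower, compared with 3.45% of the genes with an adjusted p there. Of the 37 calls here, 25 passed whichever of the 6 libraries was left out. The other 12 were lost without palbociclib replicate 2, at adjusted p from 0.0538 to 0.25, namely MCM3, MCM5, MCM6, GINS4, TIMELESS, RFC2, RFC3, RFC5, CHTF18, POLE, FEN1 and DNMT1. Without DMSO replicate 1, MCM3, MCM5, GINS4, RFC2, RFC3, RFC5 and DNMT1 were lost (0.054 to 0.256). A pimasertib library enters this comparison through the shared spread, the filter on low counts, the scaling and the adjustment of p. Leaving out either one lost MCM3, MCM5, GINS4, RFC2 and DNMT1. MCM3 and DNMT1 were lost without palbociclib replicate 1 (0.124 and 0.107), and GINS4 without DMSO replicate 2 (0.0555).

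Pimasertib lowered the same set of 50 to a median of 35.4% of the DMSO level, from 20.1% for CLSPN to 95.3% for ORC2. Here 46 of the 50 fell, compared with 11.7% of all tested genes called lower and 22.8% called in either direction, and 43 fell by at least 2-fold. All 50 log2 fold changes were below 0, with a median of -1.50 against 0.00 over all tested genes, and none was called higher by edgeR, DESeq2 or limma-voom. At an unadjusted p under 0.05, 49 of the 50 passed, compared with 36.5% of tested genes. Both pimasertib libraries lay below both DMSO libraries in 49 of the 50, again all but ORC2, as in 32.6% of tested genes. ORC2, GINS3, PRIM2 and POLD3 did not pass, at adjusted p of 0.836, 0.12, 0.0845 and 0.0819. The authors' deposited table called 46 of the 50 lower, against 11.2% of the genes with an adjusted p.

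With all 6 libraries 3376 of the 14839 tested genes passed in either direction with pimasertib. A fit without 1 library of a group rests on the other alone, and many calls were lost without pimasertib replicate 2. Without it 25 of the 50 passed, while 1055 of 15703 tested genes passed in either direction. The 21 lost were MCM4, CDC7, DBF4, TIMELESS, TIPIN, WDHD1, PCNA, RFC3, RFC4, RFC5, DSCC1, POLA1, POLA2, PRIM1, POLD1, POLE2, LIG1, RPA1, RPA2, DNMT1 and CHAF1B, at adjusted p from 0.0508 to 0.28. Without DMSO replicate 1, DSCC1, POLD1, RPA1, RPA2 and CHAF1B were lost (0.0622 to 0.325). DSCC1, POLD1 and RPA1 were lost without pimasertib replicate 1 (0.0595 to 0.107), and RPA1 without palbociclib replicate 2 (0.0508). The plot of levels by library shows each of the 50 genes against its DMSO mean.

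**Figure D1:**
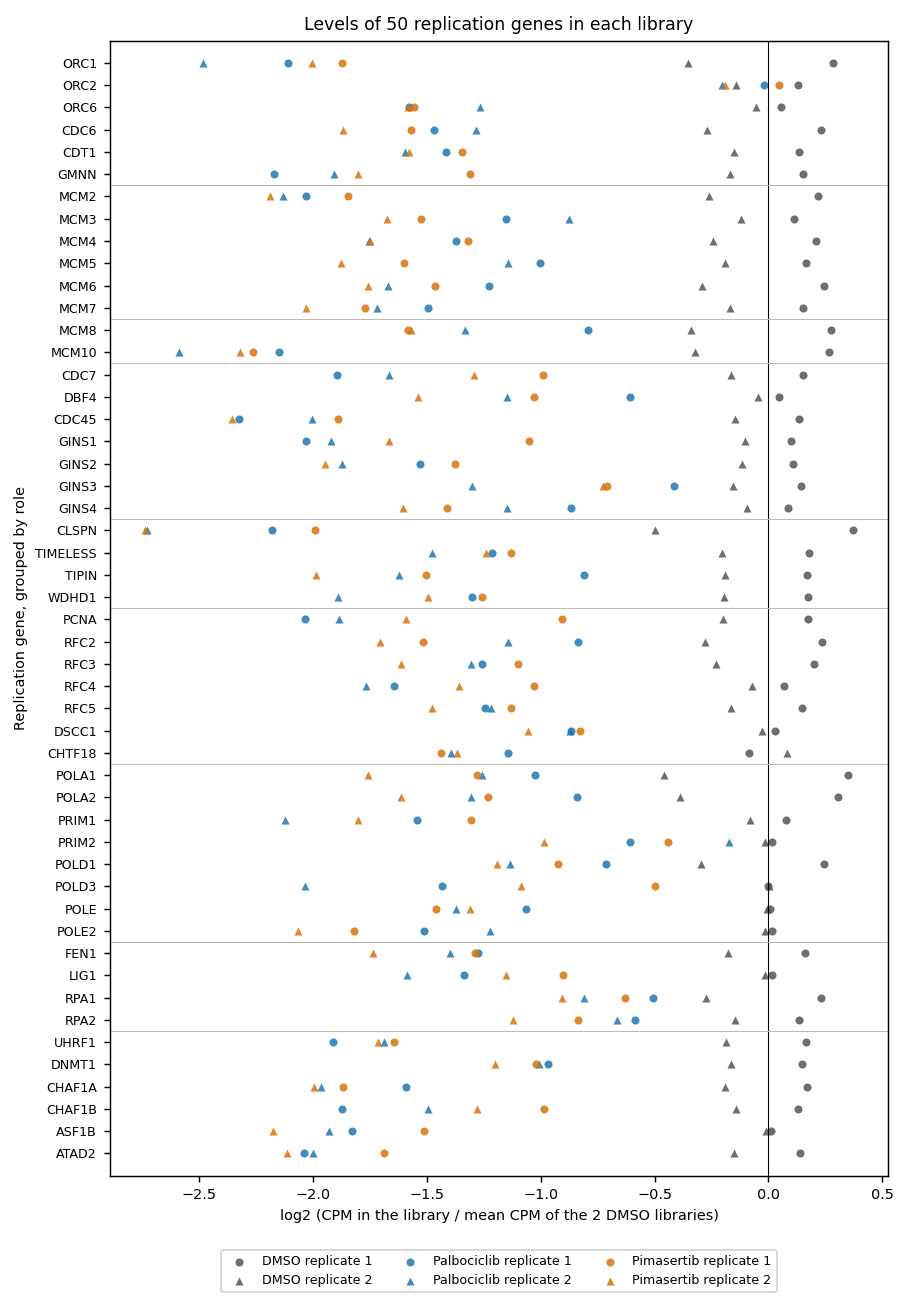
Level of each of the 50 genes in each of the 6 libraries, as log2 of its CPM over the mean CPM of the 2 DMSO libraries (x axis), with genes grouped by role (y axis) and 1 point per library. Points of both drugs lie left of both DMSO points in all genes but ORC2, and CLSPN lies farthest left.

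The comparisons of the drugs with DMSO share the DMSO libraries, so their values are given side by side and their resemblance is not a separate result. Of the 50 genes, 36 passed as lower in both, POLD3 with palbociclib alone, 10 with pimasertib alone, and ORC2, GINS3 and PRIM2 in neither. The share of all tested genes lower in both was not counted. It cannot exceed the 2.44% called lower with palbociclib. Passing in 1 comparison and not in the other does not show a difference between the drugs, which is tested directly further on. Nor does a lack of overlap between the drug groups. Both palbociclib libraries lay below both pimasertib libraries in 28.8% of tested genes and above both in 27.7%.

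The promoters of the 50 genes were read from RefSeq windows of 300 bases (GRCh38.p14), from 250 bases before to 50 after an annotated start. Windows were found for 43 of the 50 genes, 55 windows in all, and none for MCM4, MCM5, GINS4, DSCC1, POLD3, RPA2 and ATAD2. Windows of 1 gene can overlap, so they are not independent. E2F-type cores were searched on both strands, first TTCCCGC, then TTGGCGC, then TTCGCGC and finally TTGCCGC, and matches of different cores can overlap. Before the start, 24 of the 55 windows (43.6%) held a core, compared with 15.8% of the windows of tested genes and 10.9% of all windows. Over all 300 bases these shares were 65.5%, 18.8% and 13%. Stretches are printed for genes picked by name, and counts for all genes with a window follow below. The 100 bases before the start are shown for 6 genes with a core, all lower with both drugs, and for ORC2 and PRIM2. The latter had none, and their transcripts passed with neither drug. GINS3, which also passed with neither, had no core wholly before the start but 1 across or after it, beginning 5 bases from the start. MCM10 and CDC45, which fell with both drugs, had none in their windows. The printed stretches all read 5′ to 3′ on the gene's strand, with cores in capitals on either strand.
ORC1: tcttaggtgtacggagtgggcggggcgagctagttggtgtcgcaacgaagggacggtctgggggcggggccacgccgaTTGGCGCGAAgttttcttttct
CDT1: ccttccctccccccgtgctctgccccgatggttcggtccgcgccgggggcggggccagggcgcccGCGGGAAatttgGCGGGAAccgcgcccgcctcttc
MCM3: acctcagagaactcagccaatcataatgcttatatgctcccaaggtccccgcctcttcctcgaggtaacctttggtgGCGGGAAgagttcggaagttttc
PRIM1: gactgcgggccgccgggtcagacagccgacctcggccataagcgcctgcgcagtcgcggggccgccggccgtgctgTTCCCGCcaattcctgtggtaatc
CHAF1A: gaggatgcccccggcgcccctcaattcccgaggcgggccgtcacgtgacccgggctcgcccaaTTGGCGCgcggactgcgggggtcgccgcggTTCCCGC
PCNA: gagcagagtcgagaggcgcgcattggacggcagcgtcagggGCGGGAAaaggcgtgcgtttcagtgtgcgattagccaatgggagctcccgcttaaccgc
ORC2: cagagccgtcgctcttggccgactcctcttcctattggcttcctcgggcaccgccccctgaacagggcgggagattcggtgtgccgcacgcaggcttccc
PRIM2: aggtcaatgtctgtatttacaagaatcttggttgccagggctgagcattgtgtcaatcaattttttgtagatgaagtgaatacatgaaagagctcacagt

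These stretches are, in GRCh38.p14, chr1:52404424-52404523 (minus strand) for ORC1, chr16:88803689-88803788 (plus) for CDT1, chr6:52284743-52284842 (minus) for MCM3 and chr12:56752324-56752423 (minus) for PRIM1. Those of CHAF1A, PCNA, ORC2 and PRIM2 are chr19:4402540-4402639 (plus), chr20:5126623-5126722 (minus), chr2:200963661-200963760 (minus) and chr6:57314705-57314804 (plus). PCNA and PRIM2 each had 2 windows, of which 1 is shown. In ORC1 a pair of cores on opposite strands overlap, so a single run of capitals marks both, and its first core starts 22 bases before the start. The cores of MCM3 and PRIM1 start 23 and 24 bases before it. CDT1 has cores at 35 and 23 bases before the start, CHAF1A at 37 and 7, and PCNA at 59.

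The cores were placed unevenly. In 17 of the 55 windows (30.9%) a core started within the last 25 bases before the transcription start, compared with 2.05% of the 14306 windows of tested genes. In the 25 bases from the start onwards 9 windows (16.4%) held one, against 2.14%. The plot of core positions shows these bins. Among the 33 genes with a core anywhere in a window, 26 fell with palbociclib and 32 with pimasertib, with median log2 fold changes of -1.46 and -1.50. Over all tested genes the shares called lower were 2.44% and 11.7%. The 10 with a window and no core were ASF1B, CDC45, CHTF18, DBF4, FEN1, MCM10, ORC2, ORC6, POLD1 and PRIM2. Of these, 6 fell with palbociclib and 8 with pimasertib, at medians of -1.30 and -1.45, and the range from -2.36 (MCM10) to -0.11 (ORC2) with palbociclib spanned nearly that of all 50. The absence of these letters says nothing of sites elsewhere.

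**Figure D2:**
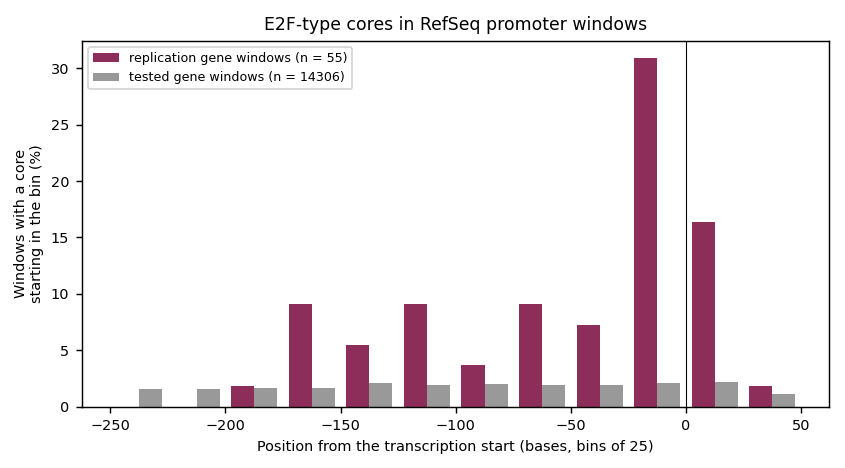
Share of RefSeq promoter windows (y axis, percent) with an E2F-type core starting in each bin of 25 bases around the transcription start (x axis), for the 55 windows of replication genes and the 14306 windows of tested genes. The highest bar, 30.9%, is that of replication genes in the bin just before the start, where tested genes have 2.05%.

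Other letters were read in the same windows. CCAAT stood in 56.4% of the replication gene windows before the start, compared with 32.9% of tested gene windows. GGGCGG, the letters of a GC box, stood in 74.5% against 62.1%. TTTGAA, the core of the CHR element known from genes of G2 phase and mitosis, stood in 1 of the 55 windows (1.82%), against 9.14%. Each was read on both strands, and a match is a description of the sequence, not of a bound factor.

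Among the 6 licensing genes, 5 fell with each drug, with median log2 fold changes of -1.46 and -1.55, where palbociclib comes first, as in every such pair that follows. For this and the later counts by role, the shares called lower over all tested genes were 2.44% and 11.7%. ORC1, the origin recognition subunit whose level is known to change over the cell cycle (ENSG00000085840, GRCh37 chr1:52838501-52870131, minus strand), was at 37.0 and 23.7 CPM with DMSO, 7.04 and 5.43 with palbociclib, and 8.30 and 7.57 with pimasertib. All 4 drug libraries lay below both DMSO libraries, with log2 fold changes of -2.29 (SE 0.29; adjusted p = 0.00246) and -1.94 (SE 0.28; adjusted p = 0.00112). ORC2, another subunit of the same complex (ENSG00000115942, GRCh37 chr2:201773696-201828403, minus strand), was at 39.7 and 32.8 CPM with DMSO, 35.8 and 31.5 with palbociclib, and 37.4 and 31.7 with pimasertib. Its groups overlapped, and its log2 fold changes of -0.11 (SE 0.21; adjusted p = 0.84) and -0.07 (SE 0.21; adjusted p = 0.836) were smaller than their errors.

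ORC6, CDC6, CDT1 and GMNN all fell with both drugs. The loading factors CDC6 and CDT1 had log2 fold changes of -1.37 and -1.50 with palbociclib and of -1.71 and -1.46 with pimasertib. GMNN, the inhibitor of loading, fell by 2.03 with palbociclib and by 1.54 with pimasertib on the log2 scale. ORC6, the smallest ORC subunit, fell (log2 fold changes -1.41 and -1.57). Calls for all 4 passed without any 1 library.

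All 6 subunits of the MCM2 to MCM7 ring, the core of the replicative helicase, fell with both drugs, with estimates of at least 2-fold. MCM2 (ENSG00000073111, GRCh37 chr3:127317066-127341276, plus strand) was at 401 and 288 CPM with DMSO, 84.3 and 78.4 with palbociclib, and 95.6 and 75.6 with pimasertib. It had the largest decrease of the 6 in both comparisons, with log2 fold changes of -2.08 (SE 0.25; adjusted p = 0.00206) and -2.01 (SE 0.25; adjusted p = 0.000472). MCM7 (ENSG00000166508, GRCh37 chr7:99690351-99699563, minus strand) was at 485 and 389 CPM with DMSO, 155 and 133 with palbociclib, and 128 and 107 with pimasertib, and fell (log2 fold changes -1.60 and -1.90).

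MCM3 and MCM5 kept more of their DMSO level with palbociclib than the other ring subunits did, 49.7% and 47.5%. MCM3 was at 166 and 141 CPM with DMSO, 68.8 and 83.5 with palbociclib, and 53.2 and 47.9 with pimasertib, with log2 fold changes of -1.01 (SE 0.21; adjusted p = 0.027) and -1.60 (SE 0.21; adjusted p = 0.000702). MCM5 was at 209 and 164 CPM with DMSO, 93.0 and 84.4 with palbociclib, and 61.5 and 50.8 with pimasertib, with log2 fold changes of -1.07 (SE 0.22; adjusted p = 0.0253) and -1.73 (SE 0.22; adjusted p = 0.00059). For both genes each palbociclib library was above both pimasertib libraries and below both DMSO libraries, and neither palbociclib call passed without palbociclib replicate 2.

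MCM4 was at 333 and 243 CPM with DMSO, 111 and 85.2 with palbociclib, and 115 and 85.6 with pimasertib, so that the drug groups interleaved. MCM6 was at 150 and 103 CPM with DMSO, 54.1 and 39.7 with palbociclib, and 45.8 and 37.4 with pimasertib. Its drug groups overlapped too, both below DMSO. Log2 fold changes were -1.55 and -1.52 for MCM4 and -1.43 and -1.60 for MCM6.

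The other MCM proteins are not part of the ring. MCM10, which helps to start the assembled helicase (ENSG00000065328, GRCh37 chr10:13203554-13253104, plus strand), was at 77.7 and 51.7 CPM with DMSO, 14.6 and 10.8 with palbociclib, and 13.5 and 12.9 with pimasertib. Its levels dropped to 19.6% and 20.4% of DMSO, with log2 fold changes of -2.36 (SE 0.26) and -2.29 (SE 0.26). MCM8, whose complex with MCM9 acts in recombination repair, was at 72.1 and 46.9 CPM with DMSO, 34.3 and 23.6 with palbociclib, and 19.9 and 20.1 with pimasertib. Palbociclib levels lay between those of the other groups without overlap. MCM8 fell with pimasertib (log2 fold change -1.57), while its palbociclib change of -1.04 (SE 0.26; adjusted p = 0.0589) did not pass.

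Helicase activation genes fell in 5 of 7 cases with palbociclib and in 6 of 7 with pimasertib. CDC45, which joins the MCM ring to form the working helicase (ENSG00000093009, GRCh37 chr22:19466982-19508135, plus strand), was at 33.1 and 27.2 CPM with DMSO, 6.01 and 7.51 with palbociclib, and 8.13 and 5.89 with pimasertib. It fell (log2 fold changes -2.15 and -2.10), the largest decrease of its group with each drug. At the other end was GINS3, at 17.4 and 14.1 CPM with DMSO, 11.8 and 6.38 with palbociclib, and 9.62 and 9.51 with pimasertib. Although both drug groups lay below DMSO, its changes of -0.80 (SE 0.31; adjusted p = 0.203) and -0.72 (SE 0.31; adjusted p = 0.12) did not pass.

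The 4 GINS subunits act as 1 complex, and the other 3 fell with each drug. Log2 fold changes were -1.97 and -1.32 for GINS1, and -1.69 and -1.63 for GINS2. GINS4 was at 23.5 and 20.7 CPM with DMSO, 12.1 and 9.97 with palbociclib (adjusted p = 0.0488) and 8.30 and 7.25 with pimasertib (adjusted p = 0.00202). Its palbociclib call is a marginal one. It passed with DESeq2 (adjusted p = 0.0419) and limma-voom (0.0413), but not with edgeR on the 4 libraries compared alone (0.0857). The authors' deposited table did not call it. The kinase CDC7 fell by 1.77 with palbociclib and by 1.13 with pimasertib. DBF4, its activating partner, fell by 1.26 with pimasertib and had a log2 fold change of -0.86 (adjusted p = 0.106) with palbociclib.

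Fork protection genes keep a stalled fork intact and carry its checkpoint signal. CLSPN, which encodes the checkpoint adaptor claspin (ENSG00000092853, GRCh37 chr1:36185819-36235568, minus strand), was at 118 and 64.5 CPM with DMSO, 20.1 and 13.7 with palbociclib, and 22.9 and 13.7 with pimasertib. It had the largest decrease of all 50 genes in both comparisons, with log2 fold changes of -2.43 (SE 0.35; adjusted p = 0.00394) and -2.32 (SE 0.35; adjusted p = 0.0013). Its DMSO libraries differed from each other by a larger ratio than those of any other of the 50.

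TIMELESS and TIPIN form a complex at the fork. TIMELESS was at 170 and 130 CPM with DMSO, 64.6 and 53.9 with palbociclib, and 68.4 and 63.4 with pimasertib, and fell (log2 fold changes -1.34 and -1.19). TIPIN was at 14.2 and 11.0 CPM with DMSO, 7.19 and 4.09 with palbociclib, and 4.44 and 3.17 with pimasertib. Both drug groups lay below DMSO for both genes, but the TIPIN change with palbociclib (-1.17, SE 0.35; adjusted p = 0.106) did not pass, while that with pimasertib (-1.72, SE 0.36; adjusted p = 0.00728) did. WDHD1, which links the helicase to polymerase alpha, fell (log2 fold changes -1.57 and -1.37).

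The sliding clamp and its loaders fell in 6 of 7 genes with palbociclib and in 7 of 7 with pimasertib. PCNA, the clamp itself (ENSG00000132646, GRCh37 chr20:5095599-5107272, minus strand), was at 170 and 132 CPM with DMSO, 36.9 and 40.8 with palbociclib, and 80.6 and 50.1 with pimasertib. Both palbociclib libraries lay below both pimasertib libraries, which lay below both DMSO libraries. Its log2 fold changes were -1.96 (SE 0.27; adjusted p = 0.00307) with palbociclib and -1.21 (SE 0.26; adjusted p = 0.00868) with pimasertib.

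Compared directly between the drugs by edgeR, neither PCNA nor RFC2 passed (adjusted p = 0.103 and 0.127). RFC2, a subunit of the loader that places PCNA on DNA, had the opposite order of the drugs in its levels. It was at 80.9 and 56.7 CPM with DMSO, 38.6 and 31.2 with palbociclib, and 24.03 and 21.1 with pimasertib, with log2 fold changes of -0.98 (SE 0.23; adjusted p = 0.0473) and -1.61 (SE 0.24; adjusted p = 0.00117). Other subunits of this loader, RFC3, RFC4 and RFC5, fell with both drugs (log2 fold changes -1.28, -1.71 and -1.23 with palbociclib and -1.33, -1.19 and -1.29 with pimasertib). DSCC1, which with CHTF18 belongs to an alternative loader, was at 19.6 and 18.9 CPM with DMSO, 10.6 and 10.5 with palbociclib, and 10.8 and 9.25 with pimasertib. It changed least of the 7, with log2 fold changes of -0.87 (adjusted p = 0.0723) and -0.94 (adjusted p = 0.0165), and CHTF18 fell (log2 fold changes -1.26 and -1.40).

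Of the 8 polymerase genes, 3 fell with palbociclib (PRIM1, POLD3 and POLE) and 6 with pimasertib. PRIM1, the catalytic subunit of primase, was at 25.2 and 22.7 CPM with DMSO, 8.21 and 5.49 with palbociclib, and 9.68 and 6.86 with pimasertib. It fell (log2 fold changes -1.81 and -1.53), with drug groups that overlapped each other. PRIM2, the other primase subunit (ENSG00000146143, GRCh37 chr6:57179603-57513375, plus strand), was at 20.4 and 20.02 CPM with DMSO, 13.3 and 17.9 with palbociclib, and 14.9 and 10.2 with pimasertib. Although its drug libraries lay below both DMSO libraries, its log2 fold changes of -0.37 (SE 0.26; adjusted p = 0.505) and -0.69 (SE 0.26; adjusted p = 0.0845) did not pass.

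POLE2, an accessory subunit of the leading-strand polymerase epsilon (ENSG00000100479, GRCh37 chr14:50110273-50155140, minus strand), had the lowest mean level of the 50 per gene length in every group. It was at 7.41 and 7.24 CPM with DMSO, 2.57 and 3.14 with palbociclib, and 2.08 and 1.75 with pimasertib. The palbociclib change of -1.35 (SE 0.35; adjusted p = 0.0678) did not pass, and the pimasertib change of -1.93 (SE 0.36; adjusted p = 0.00455) was the largest of the polymerase genes. POLE, the catalytic subunit, fell (log2 fold changes -1.21 and -1.39). POLA1 and POLA2, of the polymerase that extends primers, had log2 fold changes of -1.14 and -1.06 with palbociclib, at adjusted p of 0.0583 and 0.0692, and fell with pimasertib (-1.50 and -1.41). POLD1, the catalytic subunit of the lagging-strand polymerase delta, was at -0.91 (adjusted p = 0.082) and -1.05 (adjusted p = 0.0146).

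POLD3, an accessory subunit of polymerase delta (ENSG00000077514, GRCh37 chr11:74204896-74380162, plus strand), is given in full because it had the lowest unadjusted p of the 50 between the drugs. Levels were 20.2 and 20.2 CPM with DMSO, 7.48 and 4.93 with palbociclib, and 14.3 and 9.51 with pimasertib. The 3 groups did not overlap. It fell with palbociclib by 1.71 (SE 0.30; adjusted p = 0.0107), while the pimasertib change of -0.76 (SE 0.29) did not pass.

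Lagging-strand and single-strand-binding genes fell in 2 of 4 cases with palbociclib and in 4 of 4 with pimasertib. FEN1, the nuclease that trims Okazaki fragments, was at 206 and 163 CPM with DMSO, 76.0 and 69.7 with palbociclib, and 75.3 and 55.2 with pimasertib. LIG1, the ligase that joins them, was at 68.1 and 66.8 CPM with DMSO, 26.7 and 22.4 with palbociclib, and 36.0 and 30.3 with pimasertib. Both genes fell with both drugs, FEN1 with log2 fold changes of -1.34 and -1.50 and LIG1 of -1.46 and -1.02. Of the 4 genes, LIG1 and RPA2 had drug groups that did not overlap each other.

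The RPA subunits bind single-stranded DNA in replication and also in repair. RPA1 was at 190 and 134 CPM with DMSO, 114 and 92.1 with palbociclib, and 104 and 86.2 with pimasertib. RPA2 was at 42.1 and 34.7 CPM with DMSO, 25.6 and 24.2 with palbociclib, and 21.5 and 17.7 with pimasertib. RPA1 kept 63.6% and 59.0% of its mean DMSO level, and RPA2 64.8% and 51.0%. With palbociclib their log2 fold changes were -0.65 (adjusted p = 0.183) and -0.63 (adjusted p = 0.15), and with pimasertib they fell by 0.76 (adjusted p = 0.0456) and by 0.97 (adjusted p = 0.00987).

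All 6 genes of chromatin replication fell with both drugs, with medians of -1.78 and -1.74. ATAD2, a chromatin-bound ATPase (ENSG00000156802, GRCh37 chr8:124332090-124428590, minus strand), was at 98.6 and 80.7 CPM with DMSO, 21.8 and 22.4 with palbociclib, and 27.8 and 20.7 with pimasertib. CHAF1A, the large subunit of the chromatin assembly factor that deposits histones behind the fork, was at 101 and 78.9 CPM with DMSO, 29.9 and 23.1 with palbociclib, and 24.7 and 22.6 with pimasertib. The drug libraries of both genes were well below DMSO and interleaved with each other. ATAD2 had log2 fold changes of -2.02 (adjusted p = 0.00163) and -1.89 (adjusted p = 0.000373), and CHAF1A of -1.77 (adjusted p = 0.00246) and -1.93 (adjusted p = 0.000352).

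DNMT1, which copies DNA methylation to the new strand, was at 458 and 369 CPM with DMSO, 212 and 206 with palbociclib, and 204 and 180 with pimasertib. Its decrease was the smallest of the 6, at -0.99 (adjusted p = 0.04) and -1.11 (adjusted p = 0.00676), and the first of these calls passed in only 1 of the 6 fits without a library. UHRF1, which brings DNMT1 to new DNA, fell (log2 fold changes -1.79 and -1.68). CHAF1B, the partner of CHAF1A, fell (log2 fold changes -1.67 and -1.12). The histone chaperone ASF1B fell as well (-1.88 and -1.80).

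Set against each other, the drugs gave no call among the 50 genes. By edgeR none passed, compared with 9.39% of all tested genes (5.07% lower and 4.31% higher with palbociclib), and none passed with DESeq2 or limma-voom. At an unadjusted p under 0.05 there were 8 (POLD3, PCNA, CDC7, GINS1 and RFC4 lower with palbociclib, and MCM5, MCM3 and RFC2 higher), against 24.7% of tested genes. The median log2 difference, palbociclib over pimasertib, was 0.05, and 24 genes were below 0 and 26 above. The palbociclib libraries lay both below both pimasertib libraries in 9 genes (28.8% of tested genes) and both above them in 11 (27.7%), and the groups overlapped in 30.

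These data do not show that the drugs act alike on the 50 genes. The 95% intervals of the differences had half-widths of 0.44 to 0.82 on the log2 scale, and 36 of the 50 lay wholly within a 2-fold difference in either direction. The widest reach was from -1.61 (POLD3) to 1.40 (POLE2). For POLD3 the difference was -0.95 (95% interval -1.61 to -0.29; adjusted p = 0.0785), and for PCNA -0.75 (-1.32 to -0.17; adjusted p = 0.103). At the other end MCM5 was at 0.66 (0.17 to 1.15; adjusted p = 0.0938), RFC2 at 0.63 (0.11 to 1.15; adjusted p = 0.127) and MCM3 at 0.59 (0.12 to 1.06; adjusted p = 0.112). For ORC2 the difference was -0.04 (-0.50 to 0.42).

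In the fits without a replicate block, POLD3 and PCNA were the genes of the 50 that passed in the direct comparison. POLD3 passed without filter on low counts (adjusted p = 0.0176), without either DMSO library and without palbociclib replicate 1, and over all alternatives its adjusted p ranged from 0.00625 to 0.345. PCNA passed without the filter (0.0244), on the 4 drug libraries alone (0.0476) and without either DMSO library, and ranged from 0.00543 to 0.476. None of the 50 passed when palbociclib replicate 2 or either pimasertib library was left out.

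**Figure D3:**
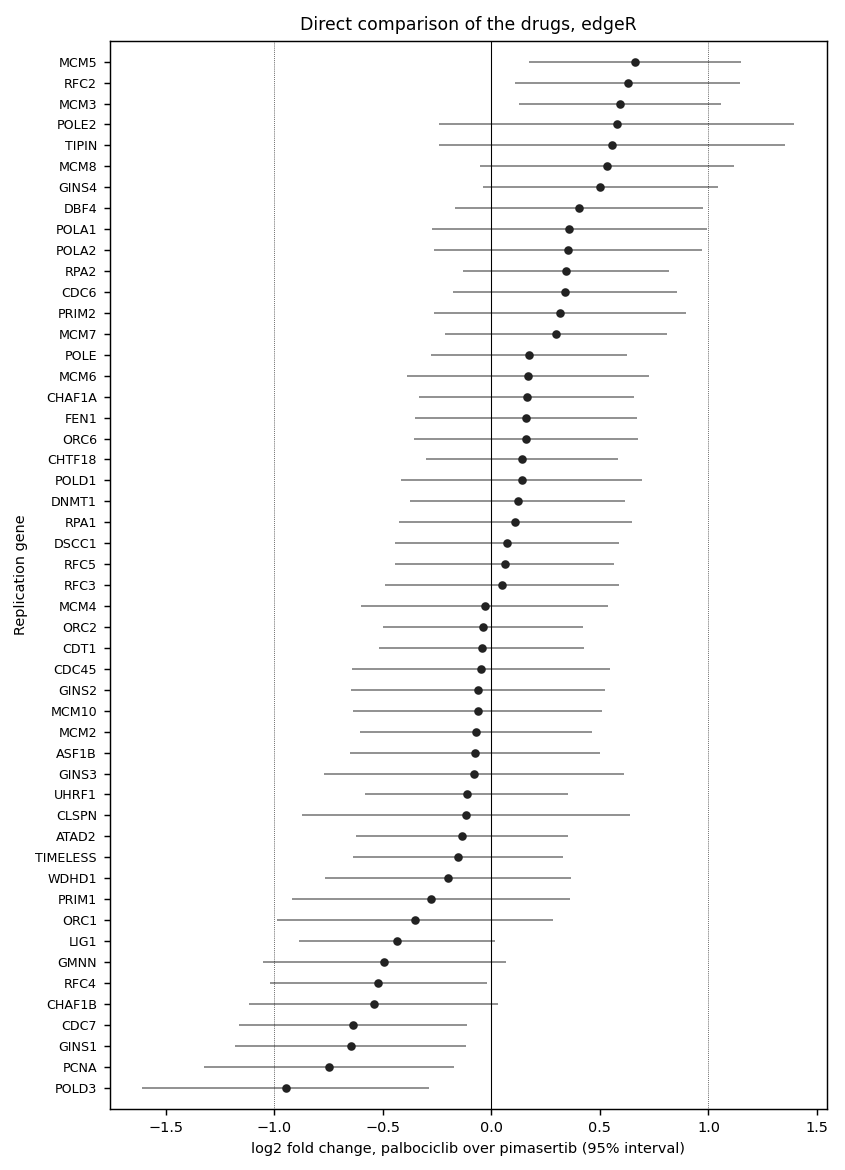
Log2 fold change of palbociclib over pimasertib (x axis) with its 95% interval for each of the 50 genes (y axis), ordered by value, from the edgeR fit of all 6 libraries. Values run from -0.95 (POLD3) to 0.66 (MCM5), dotted lines mark a 2-fold difference, and 36 intervals lie between them.

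Levels of different genes were compared on the deposited FPKM values, which divide by gene length. Within the MCM2 to MCM7 ring, whose subunits are present once each, MCM7 was highest in all 6 libraries (161 and 129 FPKM in DMSO) and MCM6 lowest in all 6 (39.3 and 27.2), with MCM5 the fifth throughout. The mean level of MCM7 was 4.36 times that of MCM6 in DMSO, 3.88 times in palbociclib and 3.56 times in pimasertib. The order of MCM2, MCM3 and MCM4 changed between libraries, and their mean levels in palbociclib, 22.7, 24.3 and 23.7 FPKM, lay within the spread of their libraries.

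The ranks of the 50 genes by mean FPKM shifted at some places. ORC2 was the 43rd in DMSO, at 8.26 FPKM, and the 19th and 20th in palbociclib and pimasertib, at 7.88 and 8.05, its level having stayed near that of DMSO while others fell below it. ORC1 was above ORC2 in DMSO replicate 1 (11.5 against 9.04 FPKM), level with it in replicate 2 (7.39 against 7.47), and below it in all 4 drug libraries, at means of 2.00 and 2.52. PCNA was the second in DMSO (109 FPKM), the fourth in palbociclib (28.9) and the first in pimasertib (48.4). POLE2 had the lowest mean in all 3 groups, at 4.02, 1.61 and 1.07 FPKM, but in palbociclib POLD3 was close (mean 1.64) and in replicate 2 lower (1.32 against 1.79). In primase, PRIM1 was above PRIM2 in both DMSO libraries (17.8 and 16.0 against 8.76 and 8.59 FPKM). In palbociclib replicate 2 PRIM1 was below it (4.02 against 7.99), and in replicate 1 they were close (5.91 against 5.81), as in pimasertib (7.09 and 4.86 against 6.62 and 4.40). The plot of FPKM shows the subunits of each complex.

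**Figure D4:**
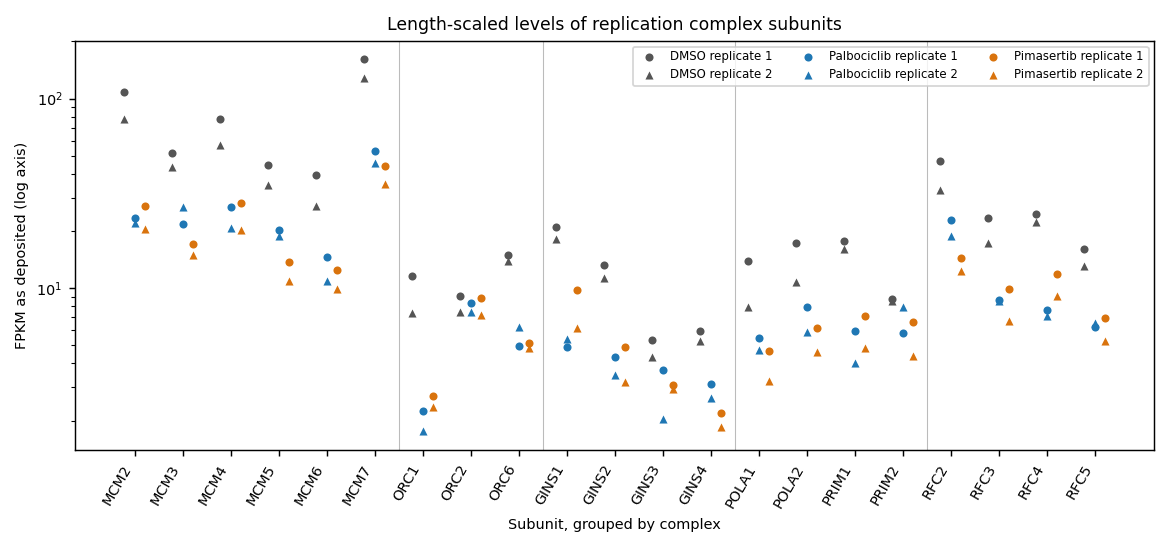
Deposited FPKM (y axis, log scale) of the subunits of 5 replication complexes (x axis, the MCM ring, ORC, GINS, polymerase alpha with primase, and the RFC loader) with 1 point per library. ORC2 and PRIM2 are the subunits whose drug points lie nearest to their DMSO points, and MCM7 is the highest of its ring in all 6 libraries.

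Of 33 other replication factors listed by name, 8 fell with palbociclib and 14 with pimasertib, with median log2 fold changes of -0.62 and -0.70. The shares called lower over all tested genes were 2.44% with palbociclib and 11.7% with pimasertib. With palbociclib the largest decreases were in the helicase PIF1 (-3.06, SE 0.42; adjusted p = 0.00307), in ATAD5, which helps to unload PCNA (-1.93), in the nuclease and helicase DNA2 (-1.91) and in TICRR, an activator of the helicase (-1.86). With pimasertib they were in topoisomerase TOP1 (-1.66, SE 0.23; adjusted p = 0.000869), DNA2 (-1.47), TICRR (-1.46) and the MCM-binding protein MCMBP (-1.42). TOP2A, the topoisomerase of dividing cells, was at -1.69 (adjusted p = 0.00464) with palbociclib and -0.94 (adjusted p = 0.0212) with pimasertib. Of the 14 pimasertib calls, 4 still passed without pimasertib replicate 2 (MCMBP, TICRR, TOP1 and FAM111A), 7 without pimasertib replicate 1 and 5 without DMSO replicate 1. The pimasertib call of DNA2 was lost without pimasertib replicate 2 (adjusted p = 0.0593), and that of TOP2A without it (0.198) or without DMSO replicate 1 (0.0902).

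Some sister subunits of the 50 were called with pimasertib and others with neither drug. POLE3 and POLE4 of polymerase epsilon and RPA3 of the single-strand binding complex fell with pimasertib, with log2 fold changes of -0.93, -0.61 and -0.95 (adjusted p = 0.0166, 0.0466 and 0.0248), passing in 4, 0 and 2 of the 6 fits without a library. With palbociclib they were at -0.62, -0.11 and -0.71 and did not pass. ORC3, ORC4 and ORC5 of the origin recognition complex had log2 fold changes of 0.23, 0.14 and -0.26 with palbociclib and 0.26, -0.30 and -0.49 with pimasertib. For POLD2 and POLD4 of polymerase delta these were -0.10 and 0.63 with palbociclib and -0.26 and 0.40 with pimasertib, and for the loader subunit RFC1 -0.62 and -0.45. None of these 6 had an adjusted p under 0.05 with either drug, the lowest being 0.13 for ORC5 with pimasertib.

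Between the drugs 3 of the 33 differed, a share near the 9.39% of all tested genes. PIF1 was lower with palbociclib than with pimasertib (-2.19; adjusted p = 0.00796), NASP, a histone chaperone, was lower too (-0.78; adjusted p = 0.0399), and TOP1 was higher (1.31; adjusted p = 0.00521). TOP1 was at 294 and 241 CPM with DMSO, 225 and 194 with palbociclib, and 92.0 and 76.7 with pimasertib, with no overlap between groups. Without pimasertib replicate 2 the PIF1 and TOP1 differences did not pass (0.0984 and 0.0921), and NASP passed in 2 of the 6 fits without a library.

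Neighbouring processes gave the following counts. Of 12 genes listed under nucleotide synthesis, which include the nucleoside transporter SLC29A1, 8 fell with palbociclib and 8 with pimasertib, with medians of -1.14 and -1.33. Among them were RRM2 of ribonucleotide reductase (-2.16 and -2.38) and the thymidylate synthase TYMS (-2.09 and -1.44). Between the drugs SLC29A1 was lower with palbociclib, and CTPS1 and NME1 were higher, calls that did not hold in every fit without a library. Of 15 kinetochore and spindle checkpoint genes, 12 and 14 fell, with medians of -1.59 and -1.18. In the direct comparison NDC80 and NUF2 were lower with palbociclib (-0.98 and -0.77). Over all tested genes 2.44% were called lower with palbociclib and 11.7% with pimasertib, and 9.39% differed between the drugs. Without pimasertib replicate 2, 6 of the 8 pimasertib calls of nucleotide synthesis and 4 of the 14 kinetochore calls (SPC24, BUB1, ZWINT and KNTC1) still passed, and 9 of the 14 without pimasertib replicate 1. Between the drugs NDC80 passed in 3 of the 6 fits without a library (adjusted p up to 0.217) and NUF2 in none (0.0503 to 0.288), nor with DESeq2 (0.0626) or voom (0.0684).

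Genes that overlap neighbours are less certain. In the deposited GRCh37 annotation 22 of the 50 overlap another listed gene, and for 12 that gene had over 10% of their mean count (MCM2, DBF4, GINS2, RFC4, RFC5, CHTF18, PRIM1, POLE, FEN1, RPA1, CHAF1A and CHAF1B). These overlaps of whole gene spans run from 7 bases (GINS2 with GSE1) to 59950 (POLE with GOLGA3). As no source used here states a strand setting for the counting, reads within an overlap, antisense ones included, cannot be separated. The plot of calls by fit gives the count of the 50 genes under each alternative.

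**Figure D5:**
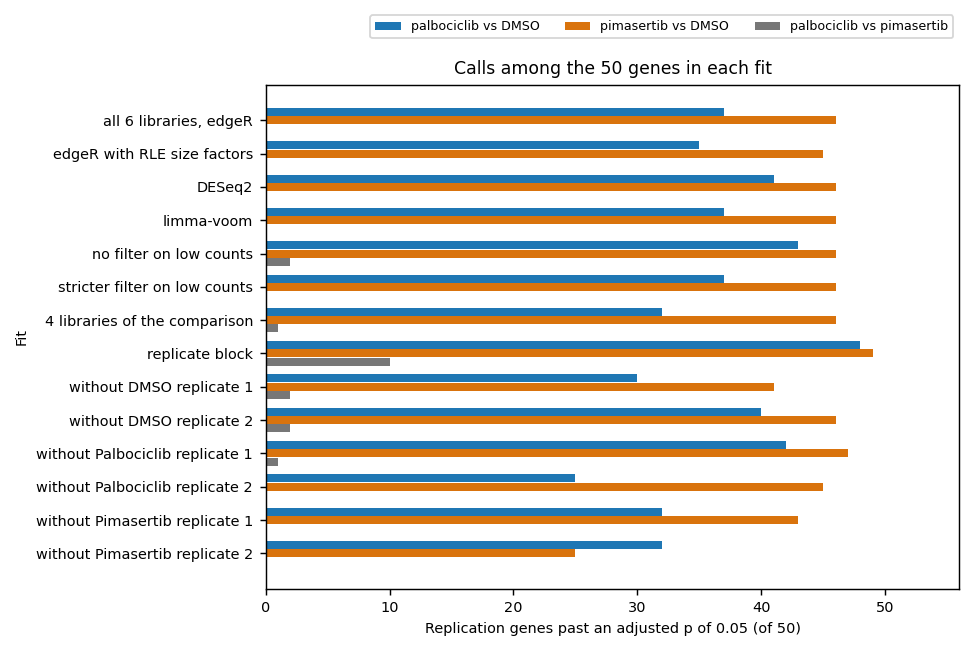
Number of the 50 genes past an adjusted p of 0.05 (x axis) in each fit (y axis) for the 3 comparisons. Palbociclib against DMSO runs from 25 to 48 and pimasertib against DMSO from 25 to 49, each lowest without replicate 2 of that drug, and the direct comparison from 0 to 10.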

How the data were processed

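The authors deposited 1 table per drug with raw read counts per gene, FPKM values, and log2 fold changes with p-values and adjusted p-values of their comparison with DMSO. Per the submitters' processing notes, CASAVA, STAR 2.5, HTSeq 0.6.1 and DESeq2 were used with hg19 and GRCh37, without settings. The deposited FPKM equal counts over gene length and library total. The tables held 23914 and 24931 genes, 22559 in both, and a gene absent from 1 was counted 0 there, having no DMSO read.

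Counts were tested with edgeR 4.0.16 (R 4.3.3) in 1 model over 6 libraries: filterByExpr (minimum count 10, total 15), TMM, glmQLFit (robust), glmQLFTest, two-sided, Benjamini-Hochberg over 14839 genes, threshold 0.05. SE is the absolute log2 fold change over the square root of F. CPM are counts over the TMM-scaled total. Steps were tested on simulated data. Alternatives were RLE size factors, DESeq2 1.42.0, voom of limma 3.58.1, other filters (none, or 50 counts in 2 libraries), the 4 libraries compared, a replicate block and leaving out each library. The authors' deposited adjusted p-values were used only for calls and their counts.

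The genes and lists were chosen with earlier results of these data known. Values per library are given for MCM2 to MCM7 and PCNA. In each role they are also given for the genes with the largest and smallest absolute log2 fold change with each drug. GINS4, POLD3 and TOP1 were added to these. Of the other replication factors, up to 4 per direction are named by size, plus TOP2A. Named outside this rule are FAM111A and the sister subunits ORC3, ORC4, ORC5, POLD2, POLD4, POLE3, POLE4, RFC1 and RPA3.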

Additional observations from a re-analysis of the deposited data

How the results depend on the processing

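Of the 50 genes, 32 to 43 were lower with palbociclib under RLE size factors, DESeq2, voom, either other filter and the 4 libraries alone (37 reported), and 45 or 46 with pimasertib (46 reported). Leaving out 1 library gave 25 to 42 and 25 to 47, and 0 to 2 between the drugs. Between the drugs 2 passed without filter and 1 on 4 libraries. Over all genes, palbociclib calls numbered 526, but 834 with DESeq2, 1097 without filter, 325 on 4 libraries and 334 to 762 leaving out 1 library. Pimasertib calls numbered 3376, or 1055 to 4082 leaving out 1, and direct calls 1393, but 2256 without filter and 456 to 1941 leaving out 1. With a lone library in a group, its spread was taken from the others. The causes were not tested.

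Replicate numbers 1 and 2 are shared by the groups, but the labels tie them to no batch. The replicate differences correlated between groups across genes (0.397, 0.351 and 0.345 over 14839 genes, which are not independent), with only 2 pairs. With the replicate block, 48 of the 50 were lower with palbociclib, 49 with pimasertib, and 10 differed between the drugs, where all genes called numbered 2953, 6551 and 4702. Of those 10, POLD3, CDC7, GINS1, LIG1, PCNA and RFC4 were lower with palbociclib and RFC2, MCM5, MCM3 and MCM8 higher.

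No call changed direction. Log2 fold changes near 0 changed sign when 1 library was left out, none with an adjusted p under 0.05. With drug against DMSO this was ORC2 (-0.24 to 0.036 with palbociclib, -0.20 to 0.071 with pimasertib). Between the drugs it was ASF1B (-0.37 to 0.31), ATAD2 (-0.33 to 0.11), CDC45 (-0.26 to 0.21), CDT1 (-0.15 to 0.088), CHAF1A (-0.029 to 0.32), CLSPN (-0.44 to 0.32), DSCC1 (-0.038 to 0.20), FEN1 (-0.046 to 0.41), GINS2 (-0.32 to 0.27), GINS3 (-0.58 to 0.29), MCM10 (-0.29 to 0.13), MCM2 (-0.23 to 0.12), MCM4 (-0.23 to 0.21), MCM6 (-0.065 to 0.36), ORC2 (-0.15 to 0.096), ORC6 (-0.023 to 0.31), POLD1 (-0.082 to 0.32), PRIM1 (-0.59 to 0.0037), RFC3 (-0.18 to 0.34), RFC5 (-0.10 to 0.26), RPA1 (-0.046 to 0.27) and WDHD1 (-0.52 to 0.052). The share of promoter windows with an E2F-type core was 65.5% over all 300 bases in place of 43.6%. Protein features were not run. With 2 libraries a group, precision is limited to the intervals given, which come from the fit without a block.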
